A study of Saccharomyces cerevisiae with 12 samples.

Results

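Amino acid biosynthesis in budding yeast was followed through 48 genes, *GCN4* and 47 genes for enzymes of arginine, histidine, lysine, branched-chain, aromatic, threonine, serine and asparagine synthesis. They were taken by gene identifier from a table of 6691 genes, and the marker genes *HIS3*, *LEU2* and *TRP1* were left out because the strains carry mutant or introduced copies of them. Gcn4 is the transcriptional activator of the general amino acid control of yeast. When amino acids run short, the kinase Gcn2 senses uncharged tRNA and phosphorylates the initiation factor eIF2, which lowers translation in general but lets ribosomes pass the short upstream reading frames of the *GCN4* mRNA and make Gcn4. Gcn4 then binds its element upstream of many biosynthetic genes and recruits coactivators, including the SAGA complex. Much of this control therefore acts on the Gcn4 protein, which RNA counts do not measure.

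Tra1 is a scaffold protein of the PIKK family (kinase-like proteins without kinase activity in this case) and a shared subunit of the SAGA and NuA4 coactivator complexes, where activators contact it. Libraries came from 4 groups of 3 biological replicates, *tra1Q3* cells at day 3, *TRA1* cells at day 3, *tra1Q3* cells at day 0 and *TRA1* cells at day 0. In *tra1Q3*, arginines of the PI3K domain of Tra1 are changed to glutamine. Both strains derive from W303A (mating type *MATa*, with the mutations *leu2-3*, *his3-11*, *trp1-1*, *ura3-1*, *ade2-1* and *can1-100*), and both carry a FLAG-tagged *TRA1* allele flanked by *URA3* and *HIS3* and the plasmid YCplac111-*DED1pr-YHR100*, whose marker is *LEU2*. Per the methods of the study, cells were grown to saturation, diluted into medium without leucine, grown for 4 h and sampled then as day 0, and again at day 3 in stationary phase. The sample labels name mid-log growth in synthetic complete medium instead. Cells in this experiment thus had no external leucine by one account and a full set of amino acids by the other. The genotype label rests on the strain, since a count of *TRA1* reads does not show which allele was read.

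Total counts per library ran from 20662125 to 28079682, and every one of the 48 genes had at least 132 counts in every library, so that none was lost to the filter on low counts. Normalized counts correct each library for its effective size (its total times its TMM factor) and bring it to the average effective size of the 12 libraries. Genes were called when edgeR's quasi-likelihood test gave a Benjamini-Hochberg adjusted p of 0.05 or less over all genes tested and the absolute log2 fold change was over 1, and the words rose and fell are kept for such genes. Replicate 2 of aged *TRA1* cells stood apart, with a median chi-square ratio of 50.5 and 62.9 against the other aged *TRA1* libraries, where the other replicate pairs of the series lay between 2.69 and 9.77 and a ratio of 1 stands for counting error alone. In that library 40 of the 48 genes (83.3%) lay below both other replicates, against 41.9% of all 6208 genes tested at day 3, and the median ratio to the mean of the others was 0.758 for the 48 genes and 1.01 for all genes. Replicates 2 and 3 of *tra1Q3* cells at day 0 held *SIP18* and *MLS1*, which are high in aged *TRA1* cells, at a sum of up to 2157 normalized counts, where replicate 1 held 156. Marker genes of *MATa* cells (6 of 6 detected in every library) summed to 29227 to 36136 normalized counts in aged *tra1Q3* cells and 6865 to 7821 in aged *TRA1* cells, and at day 0 to 60333 to 63476 in *tra1Q3* cells and 27157 to 28942 in *TRA1* cells. Markers of alpha cells (4 of 4 detected) also had a higher sum in the mutant. At day 3 this sum was 10985 to 13443 in *tra1Q3* cells and 2691 to 3136 in *TRA1* cells. At day 0 it was 19629 to 21610 in *tra1Q3* cells and 1156 to 1203 in *TRA1* cells. Of these markers *MF(ALPHA)2* alone went the other way at day 3 (log2 fold change -0.605). The part of these differences in the results on the 48 genes was not tested.

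The letters TGACTC, the core of the sequence that Gcn4 binds, were searched on both strands in the 500 bases before each start codon of the R64 genome. They occurred before 36 of the 47 enzyme genes (76.6%), against 757 of 5987 protein-coding genes (12.6%), and more than once before 12 enzyme genes (25.5%), against 1.44% of protein-coding genes. All 8 arginine, all 4 threonine and both asparagine genes had a match, as did 5 of 6 histidine, 8 of 10 branched-chain, 5 of 8 aromatic, 1 of 2 serine and 3 of 7 lysine genes. *GCN4* itself, *LYS20*, *LYS21* and *BAT2* were among the genes without a match in this window. The match nearest to the start codon is shown with its surrounding bases for genes that rose, that fell, or that fell most with age. Each window is 30 bases of the R64 genome, written 5′ to 3′ on the coding strand of the gene, with the match in capitals (GAGTCA is the same element read on the other strand).
*ASN1*, chrXVI:822381-822410: tcatgtaacattTGACTCattctgtaaact
*LEU1*, chrVII:478936-478965: cattactctagaTGACTCagtttagtctga
*HIS4*, chrIII:68515-68544: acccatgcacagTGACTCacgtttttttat
*HIS7*, chrII:716592-716621: ttcatgagaaaaGAGTCAgacatcgaaaca
*LYS12*, chrIX:187773-187802: atattcttaagaTGACTCtaattagaggaa
*ILV3*, chrX:466326-466355: ttcctctccagaTGACTCagtaatatagta
*ILV5*, chrXII:839376-839405: gatgacctaactTGACTCaatggcttttac
*LEU4*, chrXIV:426838-426867: cttacgtgtaagTGACTCagttctttcaaa
*ARO4*, chrII:718289-718318: gttactgcgaaaTGACTCaacgatgaaatg
*BAT1*, chrVIII:517349-517378: attgccttcttaTGACTCaaaattctattg
*LEU9*, chrXV:522758-522787: ggtcgtagtgaaTGACTCatatttttccat
The distance from the first base of the match to the start codon ran from 101 bases in *LEU4* to 312 in *ARO4* among these genes. *ASN1* and *LEU1*, which were higher in aged *tra1Q3* cells, and *ILV5*, *LEU4* and *ARO4*, which were lower, all had the element. A match describes the letters only and not binding.

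*GCN4* mRNA was higher in *tra1Q3* cells on both days, though by less than the fold asked of a call, and did not move detectably with age. At day 3 *GCN4* (YEL009C, chromosome V from 138918 to 139763) had 39214, 35540.0 and 35241 normalized counts in *tra1Q3* cells, against 24608, 25798 and 23198 in *TRA1* cells. At day 0 it had 40106, 37154 and 37497 in *tra1Q3* cells, against 21314, 22744 and 23241 in *TRA1* cells. The genotypes did not overlap on either day, and the group means stood at 1.49 times the *TRA1* level at day 3 and 1.71 times at day 0. On the log2 scale the mutant stood 0.68 ± 0.11 above *TRA1* at day 3 and 0.77 ± 0.047 at day 0 (adjusted p = 0.00126 and 9.54e-11). Between day 3 and day 0 it differed by -0.06 ± 0.082 in *tra1Q3* cells and 0.13 ± 0.082 in *TRA1* cells on the same scale (± SE, adjusted p = 0.497 and 0.163). Per kilobase of coding sequence *GCN4* held the first place among the 48 genes at day 3, with 43339 normalized counts per kilobase in *tra1Q3* and 29001 in *TRA1* cells. At day 0 it was second in *tra1Q3* cells (45215), behind *ILV5* (YLR355C, 55812), and in *TRA1* cells the third (26517), behind *ILV5* (38691) and *BAT1* (YHR208W, 27752).

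**Figure D1:**
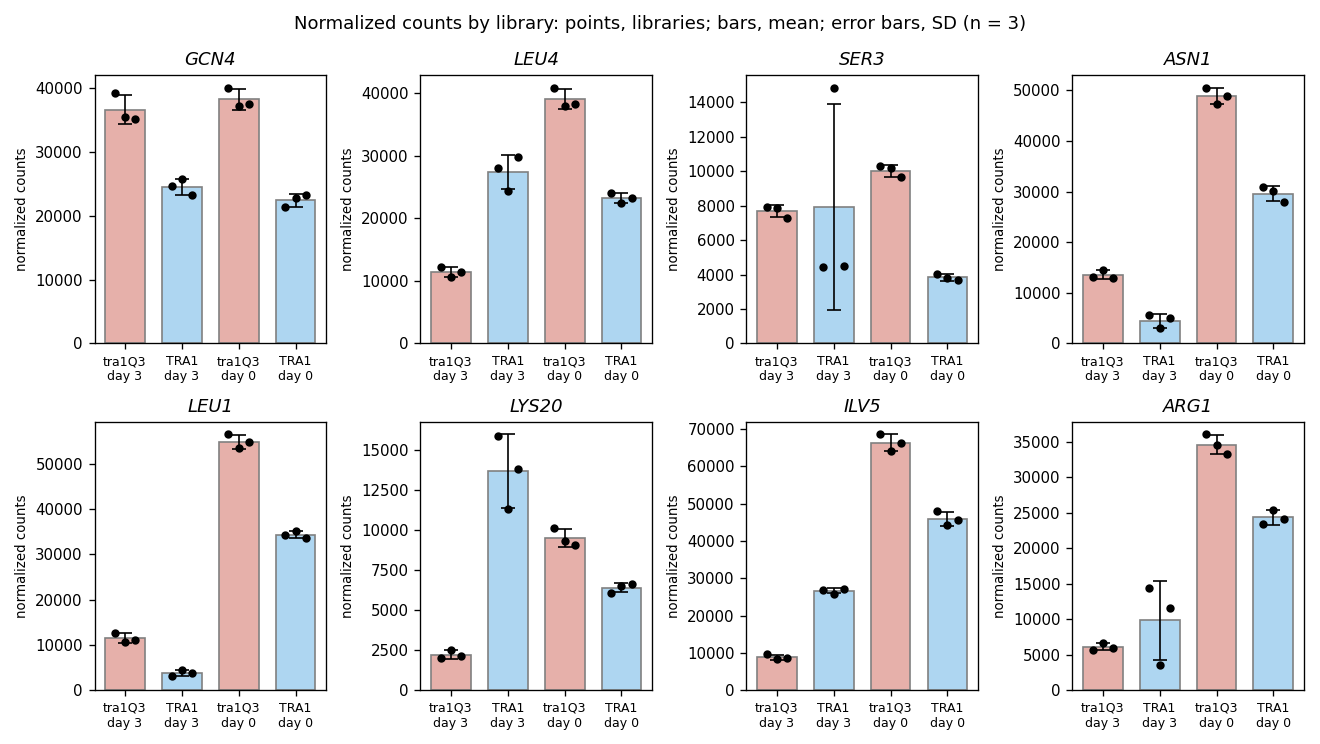
Normalized counts of *GCN4* and 7 enzyme genes in each library (points), with the group mean (bars) and SD (error bars, n = 3), for *tra1Q3* and *TRA1* cells at day 3 and then at day 0. *GCN4* lies near the same level on both days within each genotype, *ASN1* and *ILV5* are lower at day 3 in both, *LYS20* is above its day 0 level in *TRA1* cells and below it in *tra1Q3* cells, and replicate 2 of aged *TRA1* cells departs from the others for *SER3* and *ARG1*.

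Most enzyme genes were lower at day 3 in both genotypes. Together the 48 genes took 1.06% ± 0.018 of all counts in aged *tra1Q3* cells and 1.42% ± 0.090 in aged *TRA1* cells, against 3.31% ± 0.077 and 2.71% ± 0.010 in *tra1Q3* and *TRA1* cells at day 0 (SD, n = 3 each). In *tra1Q3* cells 39 of the 48 genes fell with age and *BAT2* (YJR148W) alone rose, where 23.4% of all genes tested fell and 22.7% rose. In *TRA1* cells 28 fell and 2 rose, where 19.8% of all genes fell and 20.1% rose. The median log2 fold change with age was -2.08 in *tra1Q3* cells and -1.31 in *TRA1* cells, against -0.01 and 0.03 over all genes tested. 26 genes fell in both genotypes, 12 were called lower only in the *tra1Q3* comparison, 2 (*ARG8* (YOL140W) and *HIS2* (YFR025C)) only in the *TRA1* comparison, and *LYS20* (YDL182W) fell in *tra1Q3* cells and rose in *TRA1* cells. These counts set 2 calls side by side, and the difference between the genotypes is the interaction, which has its own test. In these bulk samples fewer cells that express a gene and less of its mRNA per cell cannot be told apart. Normalized counts are relative to the rest of each library, so changes with age are not amounts of mRNA per cell.

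The largest declines were in the branched-chain pathway. *LEU9* (YOR108W), the minor of the paired isopropylmalate synthases that open the leucine branch, had 216, 202 and 173 normalized counts in aged *tra1Q3* cells, against 4775, 4426 and 4553 at day 0, which is 4.30% of the day 0 mean. In *TRA1* cells it had 313, 417 and 282 at day 3, against 5277, 5025 and 5311 at day 0, or 6.48%. *BAT1*, the mitochondrial branched-chain aminotransferase, was left with 5.50% of its day 0 mean in *tra1Q3* and 6.88% in *TRA1* cells. Its cytosolic counterpart *BAT2*, known to be expressed more as growth slows, had values of the other sign. *BAT2* had 8999.9, 8776 and 8644 normalized counts in aged *tra1Q3* cells, against 4296, 4033 and 4341 at day 0 (log2 fold change 1.06 ± 0.10 (SE), adjusted p = 8.28e-07), and 4729.6, 3391 and 4170.4 in aged *TRA1* cells, against 2567, 2409 and 2299 at day 0 (log2 fold change 0.76 ± 0.10, under the threshold). The days did not overlap in either genotype.

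In the other pathways the largest calls with age in *tra1Q3* cells were *ARO4* (YBR249C, -4.03 on the log2 scale), a synthase of the first aromatic step, *HIS7* (YBR248C, -3.01), *ARG3* (YJL088W, -2.97), the ornithine carbamoyltransferase, *HOM2* (YDR158W, -2.91), *LYS4* (YDR234W, -2.63) and *ASN2* (YGR124W, -2.10). In *TRA1* cells they were *ASN1* (YPR145W, -2.72), *HOM2* (-2.30), *ARO2* (YGL148W, -2.28), the chorismate synthase, *HIS1* (YER055C, -2.19), *ARG3* (-1.84), *LYS2* (YBR115C, -1.22) and, upward, *SER3* (YER081W, 1.05). All 4 threonine genes fell in *tra1Q3* cells and 3 of 4 in *TRA1* cells, and all 8 aromatic genes fell in *tra1Q3* cells and 6 of 8 in *TRA1* cells. Neither serine gene was called with age in *tra1Q3* cells. *CPA1* (YOR303W), the small subunit of the arginine-specific carbamoyl phosphate synthetase, kept 86.5% of its day 0 mean in *tra1Q3* and 93.7% in *TRA1* cells. The rise of *SER3* in aged *TRA1* cells rested on replicate 2, with 4438, 14856 and 4519 normalized counts in replicates 1, 2 and 3, and without that library its log2 fold change with age was 0.24. Without replicate 3 of *TRA1* cells at day 0 the adjusted p of *SER3* was 0.0521 in the same edgeR fit. When replicate 2 of aged *TRA1* cells was left out, 25 genes fell and 1 rose with age in *TRA1* cells, and *ARG1* (YOL058W, -0.89) and *ARG5,6* (YER069W, -0.77) were among those no longer called. The rise of *LYS20* in *TRA1* cells missed the threshold without replicate 1 of aged *TRA1* cells (0.98). *ILV2* (YMR108W), one of the genes that fell in *tra1Q3* cells, missed it when any of 4 libraries was left out (-0.99 to -0.95).

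**Figure D2:**
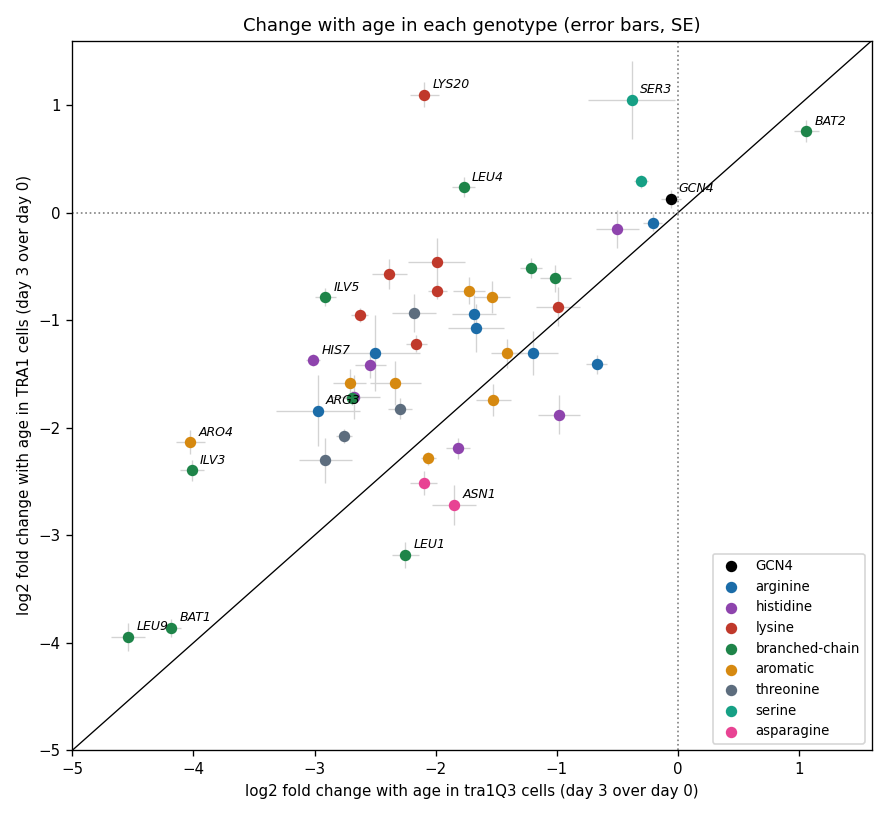
Log2 fold change with age (day 3 over day 0) of 47 of the 48 genes in *tra1Q3* cells (x axis) and in *TRA1* cells (y axis), with SE as error bars, colours for pathways and the diagonal as the line of equal change. Most points lie at the lower left and above the diagonal, where the value in *tra1Q3* cells is the more negative one. *LYS20* is far above the diagonal, and *LEU1* and *ASN1* lie below it.

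At day 3, 20 of the 48 genes differed between the genotypes. 5 were higher in *tra1Q3* cells (*ARG8*, *HIS2*, *LEU1* (YGL009C), *BAT2* and *ASN1*) and 15 were lower, where 16.4% of all genes tested were called higher and 15.6% lower. The median log2 fold change was -0.41 over the 48 genes and -0.02 over all genes, and the normalized counts of 36 of the 48 did not overlap between genotypes, against 77.2% of all genes. Without replicate 2 of aged *TRA1* cells 3 were called higher and 19 lower, since *ARG8* (0.92) and *HIS2* (0.99) then missed the threshold and *ARG3*, *ARG5,6*, *TRP2* (YER090W) and *HOM3* (YER052C) passed it. With library totals as the only scaling, which moved the median of all genes to -0.31, the split of the 48 genes was 2 higher and 19 lower and their median -0.68. All genes moved in the same direction under that scaling, to 702 higher and 1463 lower of 6208, against 1018 and 968 with TMM.

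Lysine synthesis had the most uniform difference, with 6 of 7 genes lower in aged *tra1Q3* cells and none higher. *LYS20* and *LYS21* (YDL131W) encode the homocitrate synthases that commit carbon to lysine. *LYS20* had 2004, 2502 and 2159.6 normalized counts in aged *tra1Q3* cells, against 15876, 11316 and 13820.0 in aged *TRA1* cells (log2 fold change -2.52 ± 0.16 (SE), adjusted p = 1.39e-05). *LYS21* had 1842, 1774 and 1712 in *tra1Q3* cells, against 6602, 4075 and 6197 in *TRA1* cells (log2 fold change -1.57 ± 0.18 (SE), adjusted p = 0.000206). In both genes the genotypes were far apart, with replicate 2 the lowest of the *TRA1* libraries. Only 75.6% and 76.3% of 100-base windows of these 2 coding sequences occur once in the genome, so reads that lay wholly in the rest may have been dropped as not unique. *LYS12* (YIL094C), the homoisocitrate dehydrogenase, had 1202, 1308 and 1109.8 in aged *tra1Q3* cells, against 4249, 4754 and 4317 in aged *TRA1* cells (log2 fold change -1.78 ± 0.095 (SE), adjusted p = 6.64e-06). *LYS4*, *LYS2* and *LYS9* (YNR050C), for homoaconitase, aminoadipate reductase and a saccharopine dehydrogenase, lay between -1.11 and -1.21 on the log2 scale. *LYS9* missed the threshold when replicate 1 (-0.98) or replicate 3 (-0.90) of aged *TRA1* cells was left out. *LYS1* (YIR034C), for the last step, had a value of -0.60 ± 0.23 (SE) and was not called.

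The branched-chain genes gave calls in both directions at day 3. Of the genes for steps shared by isoleucine and valine, *ILV5* and *ILV3* fell. *ILV5*, the ketol-acid reductoisomerase, had 9627, 8313 and 8524 normalized counts in aged *tra1Q3* cells, against 26895, 25833 and 27128 in aged *TRA1* cells (log2 fold change -1.50 ± 0.11 (SE), adjusted p = 2.11e-05). *ILV3* (YJR016C), the next enzyme, had 2829.7, 2626 and 2742 in *tra1Q3* cells, against 7901, 6395 and 7874 in *TRA1* cells (log2 fold change -1.34 ± 0.11 (SE), adjusted p = 3.93e-05). The leucine branch gave values of both signs. *LEU1*, the isopropylmalate isomerase, had 12661, 10735 and 11177 in aged *tra1Q3* cells, against 3247, 4396 and 3692 in aged *TRA1* cells, the highest value among the 48 genes at day 3 (log2 fold change 1.71 ± 0.13 (SE), adjusted p = 3.11e-05). *LEU4* (YNL104C), the major isopropylmalate synthase one step before it, had 12297, 10693 and 11366 in *tra1Q3* cells, against 27996, 24429 and 29824 in *TRA1* cells (log2 fold change -1.16 ± 0.12 (SE), adjusted p = 0.000128). *LEU9* had a value of -0.68 ± 0.18 and was not called, so the paired synthases had the same sign. *BAT2* rose in the mutant (1.20 ± 0.13 (SE), adjusted p = 0.000158; with library totals it was 0.92, under the threshold), while *BAT1* had a value of 0.06 ± 0.082. *ILV1* (YER086W), the threonine deaminase, and the acetolactate synthase genes *ILV2* and *ILV6* (YCL009C) were not called, at -0.78, 0.18 and -0.43.

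Histidine synthesis also had calls in both directions. *HIS4* (YCL030C), whose product catalyses several steps, had 3364, 3701 and 3388 normalized counts in aged *tra1Q3* cells, against 11118, 5555 and 10931 in aged *TRA1* cells (log2 fold change -1.30 ± 0.26 (SE), adjusted p = 0.00286). *HIS7*, the imidazole glycerol phosphate synthase, had 828, 781 and 834 in *tra1Q3* cells, against 2123, 1953 and 2088 in *TRA1* cells (log2 fold change -1.24 ± 0.082 (SE), adjusted p = 1.59e-05). *HIS2*, the histidinol phosphatase, had 1261, 1120.3 and 1100.3 in *tra1Q3* cells, against 672, 335 and 570.4 in *TRA1* cells (log2 fold change 1.24 ± 0.24 (SE), adjusted p = 0.00253). *HIS6* (YIL020C) fell as well (-1.12), and *HIS1*, of the first step, and *HIS5* (YIL116W), the aminotransferase, were not called (0.47 and -0.39). In 5 of the 6 genes, all but *HIS6*, the lowest aged *TRA1* value was that of replicate 2.

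Among the aromatic genes *ARO4* and *TRP4* (YDR354W) fell. *ARO4* had 1009.5, 969 and 926 normalized counts in aged *tra1Q3* cells, against 3297, 2310.4 and 2972 in aged *TRA1* cells (log2 fold change -1.46 ± 0.14 (SE), adjusted p = 7.62e-05). Its paralog *ARO3* (YDR035W), which encodes the other enzyme of the same first step, had a value of -0.32 ± 0.17 and was not called. *TRP4*, of tryptophan synthesis, had 356, 312 and 324 in aged *tra1Q3* cells, against 981, 642 and 895 in aged *TRA1* cells (log2 fold change -1.25 ± 0.17 (SE), adjusted p = 0.000468). *TRP4* overlaps another coding sequence by 144 bases, which can cost reads. The other aromatic genes lay between -0.91 in *TRP2* and 0.96 in *TRP3* (YKL211C), with *ARO1* (YDR127W) at -0.21, *ARO2* at 0.40 and *TRP5* (YGL026C), the tryptophan synthase, at 0.01. *TRP2* and *TRP3* encode the anthranilate synthase subunits.

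Of the asparagine genes *ASN1* alone was called, and higher in aged *tra1Q3* cells. It had 13200.1, 14548 and 12974 normalized counts, against 5539.5, 2957 and 5003 in aged *TRA1* cells (log2 fold change 1.69 ± 0.23 (SE), adjusted p = 0.00045). Its paralog *ASN2*, an asparagine synthetase like it, had a value of 0.47 ± 0.13 and was not called. *SER1* (YOR184W), the phosphoserine aminotransferase, had 3146, 3201 and 3302 in aged *tra1Q3* cells, against 7187, 6512 and 7224 in aged *TRA1* cells, close to the threshold (log2 fold change -1.02 ± 0.087 (SE), adjusted p = 4.58e-05). It missed the threshold when replicate 3 of aged *TRA1* cells or replicate 2 of aged *tra1Q3* cells was left out (-0.99 in both cases), and likewise without replicate 1 of aged *TRA1* cells (-0.997). *SER3* had a value of 0.06 ± 0.45, and its *TRA1* libraries lay on both sides of the mutant ones. Without replicate 2 of aged *TRA1* cells the value of *SER3* at day 3 was 0.87 (adjusted p = 6.57e-08 in edgeR's test), still under the fold asked of a call. Of the arginine genes only *ARG8*, the acetylornithine aminotransferase, was called, with 4661, 4609 and 4697 in aged *tra1Q3* cells, against 2686, 2045 and 2554 in aged *TRA1* cells (log2 fold change 1.04 ± 0.12 (SE), adjusted p = 0.000179). The others ranged from -0.95 in *ARG3* to 0.91 in *ARG4* (YHR018C), the argininosuccinate lyase, with *ARG5,6* at -0.71, *ARG7* (YMR062C) at 0.11 and *CPA1* at 0.50, and replicate 2 was the lowest *TRA1* library in 7 of the 8 arginine genes, *CPA1* being the exception. *ARG1*, the argininosuccinate synthase, was not called (-0.59 ± 0.44) and had 5726, 6699 and 5947 in aged *tra1Q3* cells, against 14366, 3545 and 11601 in replicates 1, 2 and 3 of aged *TRA1* cells. No threonine gene was called, the largest value being -0.81 ± 0.23 in *HOM3*, the aspartate kinase. *HOM2*, the semialdehyde dehydrogenase after it, had -0.37, *THR1* (YHR025W), the homoserine kinase, -0.32, and *THR4* (YCR053W), the threonine synthase, -0.16.

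**Figure D3:**
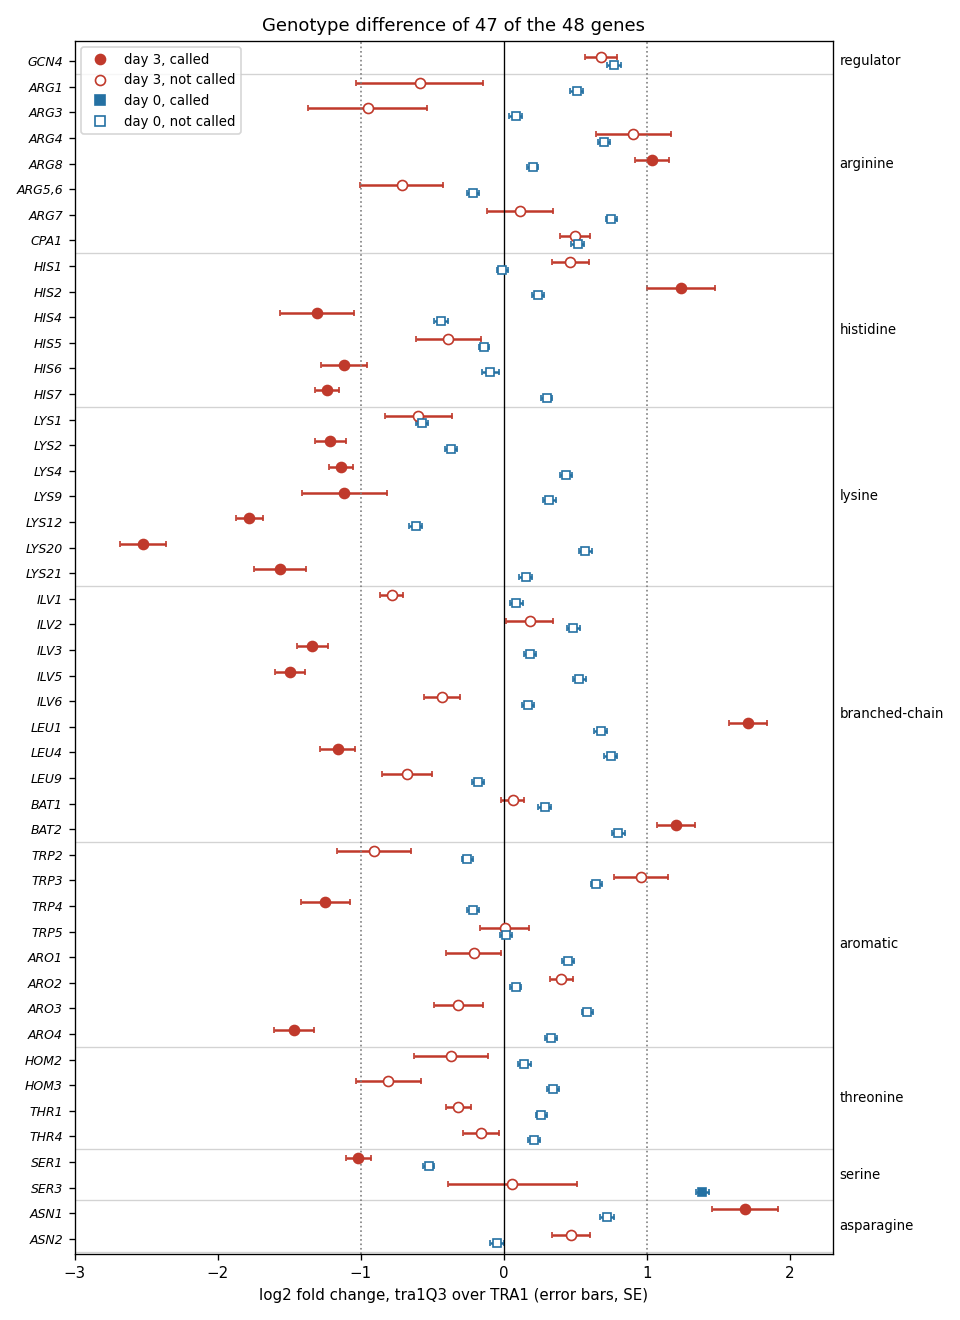
Log2 fold change of *tra1Q3* over *TRA1* cells at day 3 (circles) and at day 0 (squares) for 47 of the 48 genes by pathway, with SE as error bars, filled where the gene was called and with dotted lines at -1 and 1. The day 0 values stay within the dotted lines except for *SER3*, and the day 3 values of lysine genes all lie left of 0.

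**Figure D4:**
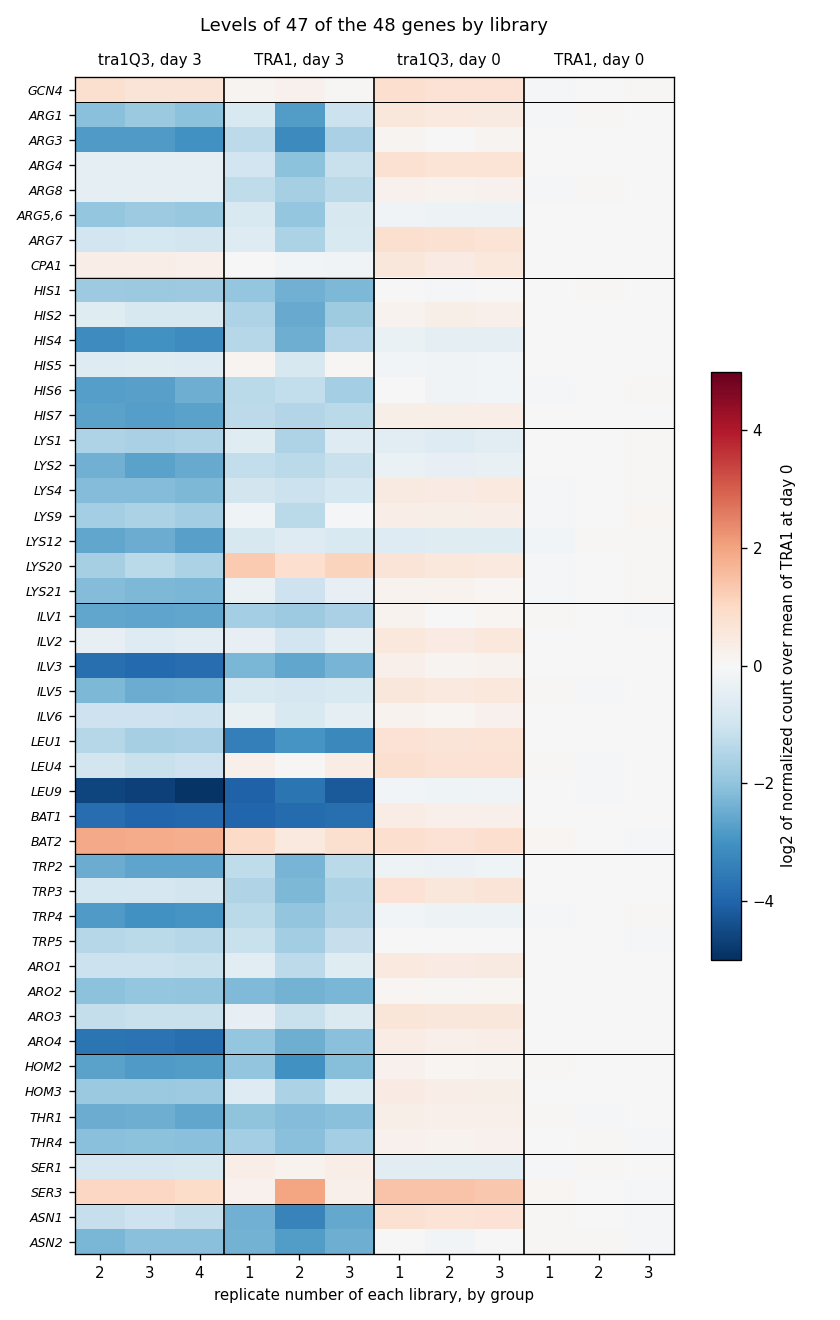
Log2 of the normalized count over the mean of *TRA1* cells at day 0 in each library, with 47 of the 48 genes in rows by pathway and libraries in columns by group and replicate number. The aged libraries are mostly blue (lower than *TRA1* cells at day 0), and the column of replicate 2 of aged *TRA1* cells is darker than its neighbours in most arginine rows.

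At day 0 only 2 of the 48 genes were called, both higher in *tra1Q3* cells, where 3.31% of all genes tested were called higher and 2.76% lower. One of them was *SER3*, a phosphoglycerate dehydrogenase of the first step of serine synthesis, which had 10281, 10187 and 9639 normalized counts in *tra1Q3* cells, against 4058, 3769.7 and 3666 in *TRA1* cells (log2 fold change 1.39 ± 0.045 (SE), adjusted p = 1.34e-14). Its paralog *SER33*, outside the 48 genes, had a value of the other sign (-0.53 ± 0.038 (SE)) and was not called. *CPA1*, which was not called, had 26875, 24288 and 26314 in *tra1Q3* cells, against 17877, 18142 and 18177 in *TRA1* cells (log2 fold change 0.52 ± 0.045). The genotypes did not overlap in *SER3* or in *CPA1*. With replicate 1 alone for *tra1Q3* cells at day 0, *SER3* stood at 10281 normalized counts, above every *TRA1* library of that day. In a fit on that lone library the spread came from the *TRA1* libraries only, and the library was assumed to vary like them.

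Smaller values at day 0 leaned upward, since 35 of the 48 genes had a log2 fold change above 0 and their median was 0.25, against 0.01 over all genes. 41 of the 48 had an adjusted p of 0.05 or less, against 68.7% of all genes, and 42 did not overlap between genotypes, against 71.5% of all genes. The largest uncalled value of each pathway other than arginine and serine synthesis was 0.80 in *BAT2*, 0.72 in *ASN1*, 0.65 in *TRP3*, -0.62 in *LYS12*, -0.44 in *HIS4* and 0.34 in *HOM3*. All 4 threonine genes, 7 of 8 arginine genes and 9 of 10 branched-chain genes had a value above 0, against 2 of 6 histidine genes. 19 genes had a value above 0 at day 0 and below 0 at day 3, and 2 had the opposite order. These are signs alone, and the share of all genes with either order was not counted. The 2 genes were *HIS1* (-0.009) and *ASN2* (-0.0475), not told apart from 0 at day 0 in edgeR's test (adjusted p = 0.845 and 0.406). Among the 19, the same held for *ARG3* and *ILV1* at day 0 (adjusted p = 0.107 and 0.0843). At day 3 it held for *ARG1*, *ARG3*, *ARO1*, *ARO3*, *HOM2* and *THR4* of the 19 (adjusted p = 0.0743 to 0.358 in edgeR's test).

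The change with age was then compared between the genotypes as an interaction, the log2 change in *tra1Q3* cells minus that in *TRA1* cells. It was called negative for 16 of the 48 genes and positive for none, where 17.9% of all genes tested were called negative and 13.6% positive. The median was -0.72 over the 48 genes and -0.15 over all genes. Lysine genes made up 5 of the 16, branched-chain genes 3, and arginine, histidine and aromatic genes 2 each, with 1 gene each from threonine and serine synthesis. Without replicate 2 of aged *TRA1* cells 20 were called negative and 1 positive (*LEU1*, 1.07).

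*LYS20* had the largest interaction, -3.19 ± 0.17 (SE), adjusted p = 2.6e-08. It fell to 2222 ± 255 normalized counts in aged *tra1Q3* cells, against 9484 ± 539 at day 0, and stood at 13670.5 ± 2284 in aged *TRA1* cells, against 6389 ± 291 at day 0 (SD, n = 3 each). The levels of the other homocitrate synthase gene, *LYS21*, were 1776 ± 64.8 and 9262 ± 352 in *tra1Q3* cells at day 3 and day 0, and 5625 ± 1357 and 8331 ± 436 in *TRA1* cells, with an interaction of -1.82 ± 0.20 (SE), adjusted p = 7.49e-06. *LYS4* followed with -1.68. All 7 lysine genes had a value below 0, *LYS1* being the smallest (-0.12).

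*ILV5* kept 13.3% of its day 0 mean in *tra1Q3* cells and 57.9% in *TRA1* cells (interaction -2.12 ± 0.12 (SE), adjusted p = 3.88e-08). *LEU4* kept 29.3% in *tra1Q3* cells and stood at 118% in *TRA1* cells (interaction -2.01 ± 0.13 (SE), adjusted p = 1.13e-07), while its paralog *LEU9* had an interaction of -0.59 ± 0.17 and was not called. *ILV3* kept 6.19% in *tra1Q3* cells and 18.98% in *TRA1* cells (interaction -1.62 ± 0.13 (SE), adjusted p = 5.25e-07). *ARO4* kept 6.14% in *tra1Q3* cells and 22.8% in *TRA1* cells (interaction -1.89 ± 0.15 (SE), adjusted p = 6.03e-07), and its paralog *ARO3* had -0.999, just short of the threshold. *HIS7* kept 12.4% in *tra1Q3* cells and 38.6% in *TRA1* cells (interaction -1.64 ± 0.078 (SE), adjusted p = 1.19e-08). *HIS6* (-1.12), *TRP4* (-1.13) and *HOM3* (-1.25) had smaller negative values.

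*ARG1* and *ARG3* were called with wide errors, at -1.19 ± 0.49 (SE), adjusted p = 0.049 and -1.13 ± 0.46 (SE), adjusted p = 0.0448, and *SER3* at -1.43 ± 0.51 (SE), adjusted p = 0.026. In edgeR's test the adjusted p of *ARG1* was 0.0686 to 0.139 and that of *ARG3* 0.0613 to 0.128 when any library but replicate 2 of aged *TRA1* cells was left out. For *SER3* the value without replicate 2 of aged *TRA1* cells was -0.60, below the threshold, and its adjusted p was 0.0525 to 0.0542 without replicate 2 or 3 of *TRA1* cells at day 0 or replicate 4 of aged *tra1Q3* cells. Asparagine synthesis had no call, and its largest value was positive (0.87 ± 0.25 in *ASN1*). *ASN1* kept 27.8% of its day 0 mean in *tra1Q3* cells and 15.2% in *TRA1* cells.

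The enzyme genes with and without a TGACTC match can be set side by side as a description. At day 3 the median log2 fold change between genotypes was -0.59 over the 36 genes with a match and 0.01 over the 11 without, and 3 and 11 of the 36 were called higher and lower, against 2 and 4 of the 11, where 16.4% of all genes tested were called higher and 15.6% lower. At day 0 the medians were 0.19 with a match and 0.44 without. With age they were -2.17 with and -1.72 without in *tra1Q3* cells, and -1.41 with and -0.61 without in *TRA1* cells. The 4 genes without a match that were called lower at day 3 were all lysine genes (*LYS4*, *LYS9*, *LYS20* and *LYS21*). The 2 called higher were *HIS2* and *BAT2*. The split by match is thus in part a split by pathway.

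Genes around these pathways were followed in further lists. Their counts at day 3 are small and stand against the 16.4% of all genes tested that were called higher and the 15.6% called lower. Of 8 pathway regulators, 3 were higher and 2 lower in aged *tra1Q3* cells. *LYS14*, which encodes the activator of the lysine genes, had 13809, 14223 and 14095 normalized counts in aged *tra1Q3* cells, against 3412, 3839 and 3393 in aged *TRA1* cells (log2 fold change 2.08 ± 0.095 (SE), adjusted p = 4.01e-06), on the day when 6 of 7 lysine genes were lower in the mutant. *ARG81* (1.51) and *ARG80* (1.39), of the arginine-responsive repressor complex, were higher too, and *ARG82* (-1.29) and *ARO80* (-1.13) were lower. None of the 8 was called at day 0.

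Of 15 genes for the control of Gcn4 synthesis and decay and its coactivator Mbf1, 3 were higher and 2 lower in aged *tra1Q3* cells, near the shares of all genes (16.4% and 15.6%), and none was called at day 0. *MBF1*, which encodes a protein that bridges Gcn4 and the TATA-binding protein, had 125869, 119469 and 123873 normalized counts in aged *tra1Q3* cells, against 19240.1, 16736 and 18881 in aged *TRA1* cells (log2 fold change 2.85 ± 0.15 (SE), adjusted p = 5.92e-06). *GCN3* (1.63) was higher and *GCD1* (-1.56) lower, both encoding subunits of the exchange factor eIF2B. *PCL5*, which encodes the cyclin that marks Gcn4 for destruction and is itself a Gcn4 target, was higher in aged *tra1Q3* cells (1.41) and at 0.72 at day 0. *GCN2*, the sensor kinase, was not called at day 3 (-0.73), though its interaction was (-1.10).

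Of 13 other enzymes of the same pathways, *ARO8* was higher (1.31) and *ARO9* (-1.64) and *PHA2* (-1.11) were lower in aged *tra1Q3* cells. At day 0 *ARO9* was higher (1.24) and *SHM2*, a serine hydroxymethyltransferase, lower (-1.62). Of 11 amino acid permeases 3 were higher and 1 lower in aged *tra1Q3* cells, where 16.4% of all genes were higher and 15.6% lower. The higher ones were *CAN1* (1.96), *AGP1* (1.23) and *ALP1* (1.20), and *BAP2*, a branched-chain amino acid permease, was lower (-2.13). *CAN1*, the arginine permease, carries the *can1-100* mutation in both strains. At day 0 *AGP1* alone was called, and lower (-1.33). Of 7 breakdown genes, *CAR1*, the arginase, had 13246, 12677 and 13144 normalized counts in aged *tra1Q3* cells, against 2016, 1396 and 1671 in aged *TRA1* cells (log2 fold change 3.04 ± 0.15 (SE), adjusted p = 5.7e-06). *ARO10*, a decarboxylase for breakdown of aromatic amino acids, had 861, 763 and 729.7 in aged *tra1Q3* cells, against 8293, 7556 and 7851 in aged *TRA1* cells (log2 fold change -3.23 ± 0.10 (SE), adjusted p = 3e-06). *GCV1* (-1.08) and *GCV2* (-1.23), of glycine cleavage, were lower at day 0. Among the strain marker genes, *LEU2* ranged from 12907 to 17439 normalized counts in aged *tra1Q3* cells and from 10653 to 16191 in aged *TRA1* cells, and only *ADE2* was called in a genotype comparison (-1.09 at day 0).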

How the data were processed

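Read pairs from poly dT-enriched libraries were trimmed by the authors with Trimmomatic, aligned to the S288C R64 genome with STAR 2.5.4b, and counted on coding sequences with featureCounts 1.6.0 (versions per the submitters' processing notes). The table deposited holds whole-number counts that were not normalized, and its program line sets no strand option, so reads of overlapping genes may be lost or unassignable (6 of the 48 genes overlap another coding sequence). Counts of pairs and of reads without a mate (12.5% to 18.1%) were added. An unnamed entry with 0.0851% of counts was left out. All 48 genes had the coordinates of the RefSeq R64 annotation.

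A minimum of 10 counts in 3 libraries was asked of each gene, and the fits used TMM, glmQLFit and glmQLFTest of edgeR 4.0.16 under R 4.3.3. The genotypes were compared in the 6 libraries of each day, and age and interaction in 1 fit of 12 libraries with a mean per group. The SE is the absolute log2 fold change over the square root of the F statistic. p-values rest on the spread between biological replicates, 3 per group, which the groups of a fit share. In the fit of 12 libraries, replicate 2 of aged *TRA1* cells thus also enters the SE and p-values of age in *tra1Q3* cells. *ARG1* had an SE of 0.368 there, with 6124 ± 510 and 34648 ± 1395 normalized counts (SD) in *tra1Q3* cells at day 3 and day 0. Ratios of group means use scaling over 12 libraries and can differ from fold changes fitted within a day. The scripts were tested on simulated data.

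The values of 1 of the 48 genes are not reported here, though the counts and medians include it. The genes and lists were chosen with earlier results of these data known. In genotype and interaction comparisons, up to 3 called genes per pathway with the largest absolute value are given, in age comparisons the largest, and paralog pairs among the 48 genes are given side by side. Of the other lists called genes are named, though not all of them. *GCN2*, *LEU2* and *SER33* stand beside them for their function. Alternatives were no filter, upper quartile scaling, library totals, DESeq2 1.42.0, edgeR with DESeq2's size factors, a replicate block, read pairs alone, 1 fit of 12 libraries, and libraries left out.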

Additional observations from a re-analysis of the deposited data

Results flagged for a closer look

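The change with age differed between the genotypes, by a test of the difference itself, in 16 of the 48 genes, and each value here is the log2 change in *tra1Q3* cells minus that in *TRA1* cells. The lysine genes were *LYS20* (-3.19), *LYS21* (-1.82), *LYS4* (-1.68), *LYS9* (-1.53) and *LYS12* (-1.26). The branched-chain genes were *ILV5* (-2.12), *LEU4* (-2.01) and *ILV3* (-1.62). The others were *ARO4* (-1.89), *HIS7* (-1.64), *SER3* (-1.43), *HOM3* (-1.25), *ARG1* (-1.19), *ARG3* (-1.13), *TRP4* (-1.13) and *HIS6* (-1.12). 13 of the 16 were called under every alternative run, the exceptions being *ARG1*, *ARG3* and *SER3*.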

How the results depend on the processing

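No call reversed under any alternative. Of the genes called, 2 of 2 at day 0, 15 of 20 at day 3, 39 of 40 with age in *tra1Q3* cells, 25 of 30 with age in *TRA1* cells and 13 of 16 in the interaction were called under every alternative run. The 5 at day 3 that were not were *ARG8*, *HIS2*, *LYS9*, *BAT2* and *SER1*. With library totals the median log2 fold change of the 48 genes was 0.17 at day 0 and -2.01 with age in *tra1Q3* cells, and 2 genes were called higher at day 3. With upper quartile scaling these medians were 0.31 and -1.96. Same-numbered samples correlated between -0.133 and 0.0281 in their deviations from the group means. No pairing by replicate number was thus detected, though deviations among 3 libraries per group cannot show that the samples were unpaired. With a replicate block 1 gene was called higher with age in *TRA1* cells, 7 higher and 14 lower at day 3, and 13 negative in the interaction. Only replicate numbers 2 and 3 occurred in both genotypes at day 3, so the day 3 counts of that fit rested on those libraries. They include replicate 2 of aged *TRA1* cells, which stood apart. Leaving out each library in turn gave 3 to 7 genes higher and 13 to 19 lower at day 3 (median -0.59 to -0.25), 2 higher and 0 lower at day 0 (median 0.24 to 0.26), 1 higher and 38 to 40 lower with age in *tra1Q3* cells (median -2.09 to -2.03), 1 to 2 higher and 25 to 31 lower with age in *TRA1* cells (median -1.41 to -1.07), and 0 to 2 positive and 13 to 20 negative in the interaction (median -0.87 to -0.62). The single positive call without replicate 2 of aged *TRA1* cells was *LEU1*, and without replicate 1 they were *ASN1* (1.05) and *HIS2* (1.12). With replicate 1 of *TRA1* cells at day 3, or replicate 3 at day 0, left out, 1 gene rose with age in *TRA1* cells. The cause was not tested.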
